A study of Homo sapiens with 24 samples.

Results

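The baseline transcriptomes of 2 families of human multiple myeloma cell lines were compared: the MM1 lines (MM1R and MM1S) and the KMS-12 lines (KMS-12-BM and KMS-12-PE). The comparison used the 12 control libraries (CTRL) of the 24 libraries sequenced, 6 per family and 3 per line, and a gene's family difference was the mean of the MM1R and MM1S means minus the mean of the KMS-12-BM and KMS-12-PE means on the scale log2(TPM + 1). TPM is a read count scaled for gene length and for library size, so that levels of different genes can be compared. By the labels, CTRL cells had DMSO and a time of 0 hours, and the other 12 libraries (siIRF4) came 48 hours after electroporation of a pool of siRNAs against IRF4, a transcription factor on which myeloma cells depend. All lines were grown in RPMI 1640 with 10% FBS, and no control siRNA is named.

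Multiple myeloma is a cancer of plasma cells, the antibody-secreting end stage of the B cell lineage. Many myelomas carry a chromosomal translocation that places an oncogene beside an immunoglobulin enhancer, and a D-type cyclin is overexpressed in nearly all of them. The MM1 lines are known for a translocation that activates the transcription factor MAF, which drives CCND2, ITGB7 and CCR1 among other genes, and the KMS-12 lines for one that activates CCND1. MM1R and MM1S are sublines of the same parental line, selected for resistance and sensitivity to glucocorticoids, and KMS-12-BM and KMS-12-PE were derived from bone marrow and pleural effusion of the same patient. A family therefore stands for a single tumour, and a difference between families cannot be told apart from a difference between 2 patients.

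The CTRL libraries held 17299851 to 24018950 reads, recovered from the TPM values, and a gene was tested when it reached 1 TPM in at least 3 of the 24 libraries, which left 15113 of 25341 genes. Defining plasma cell markers were present in every line, IRF4 at 380.3 TPM in MM1R and 361 TPM in KMS-12-BM among them, although KMS-12-BM was low in SDC1 (mean 6.05 TPM). Libraries of MM1S and KMS-12-PE held more transcripts of epithelial, myeloid and stromal marker genes than the related lines: KRT5, a keratin, had a mean of 50.9 TPM in MM1S and 55.8 TPM in KMS-12-PE, against 0.0173 TPM in MM1R and 0 TPM in KMS-12-BM. The summed level of the 10 myeloid markers ranged from 128.3 to 198.5 TPM in MM1S, 152.0 to 188.4 TPM in KMS-12-PE, 49.46 to 57.74 TPM in MM1R and 17.7 to 18.26 TPM in KMS-12-BM. That of the 11 stromal markers was 101.7 to 193.5 TPM in MM1S against 25.63 to 26.51 TPM in MM1R, and 145.0 to 189.0 TPM in KMS-12-PE against 83.14 to 87.66 TPM in KMS-12-BM. That of the 10 epithelial markers was 115.8 to 158.8 TPM in MM1S against 33.4 to 39.33 TPM in MM1R, and 240.3 to 265.0 TPM in KMS-12-PE against 210.3 to 216.1 TPM in KMS-12-BM. Because this signal is higher in 1 line of each family, the pair with less of it (MM1R and KMS-12-BM) and the pair with more (MM1S and KMS-12-PE) are also given where they matter.

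The families differed in a large part of the transcriptome. Of 15113 genes tested, 6957 (46.0%) had no overlap between the 6 MM1 and the 6 KMS-12 libraries, 3421 of them (22.6%) higher in MM1 and 3536 (23.4%) higher in KMS-12. Limma with each library as a replicate called 12882 genes (85.2%) at an adjusted p under 0.05, 40.4% of all genes higher in MM1 and 44.8% higher in KMS-12, which leaves little to choose between genes. A stricter description was therefore used: a gene has a gap when its lowest library in the higher family lies at least 1 log2 unit above the highest library of the other family. A gap was found for 1034 genes (6.84%) higher in MM1 and 727 (4.81%) higher in KMS-12. These shares over all genes are the background for every count of list members below. When the 4 line means were the units, 2 against 2, limma called 692 genes (4.58%), 449 of them (2.97%) higher in MM1 and 243 (1.61%) higher in KMS-12, and all 692 were among the genes with a gap. The standard errors and adjusted p-values given below for family differences of single genes in CTRL come from this test on line means. The labels do not say whether the libraries of a line are separate cultures, and p-values over libraries measure only the spread between them. The interaction p-values for single genes in the comparison with siIRF4 are over libraries.

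Most of the separation was between families rather than within them, but the KMS-12 lines also differed widely from each other. The median absolute difference over all genes was 0.60 between families, 0.24 between MM1R and MM1S and 0.54 between KMS-12-BM and KMS-12-PE. A difference of at least 1 was found for 4524 genes between families, 786 within MM1 and 4049 within KMS-12. Of the 6957 genes without overlap, 6076 (87.3%) differed more between families than within either family, which is 40.2% of all genes. The plot of principal components shows the same layout, with the KMS-12 lines far apart on the second component.

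**Figure D1:**
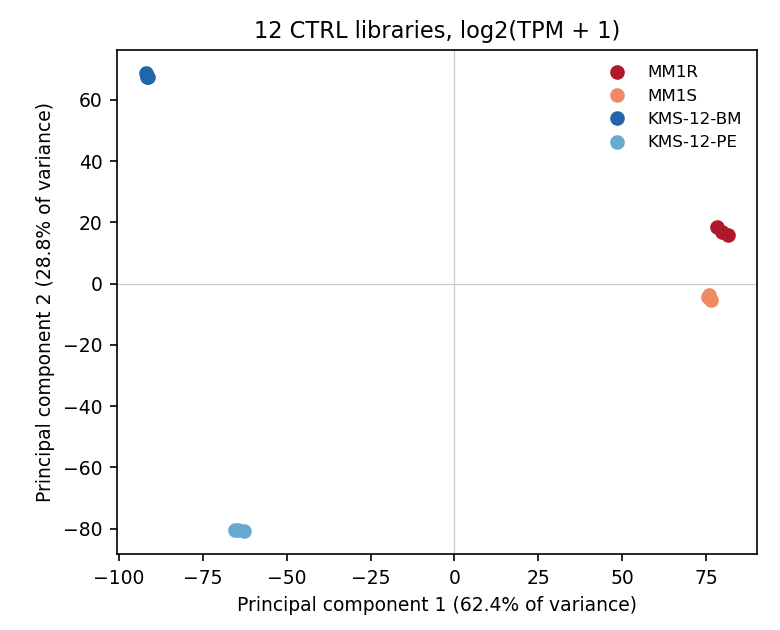
Principal components of the 12 CTRL libraries on log2(TPM + 1), each point 1 library coloured by line; the horizontal axis holds 62.4% of the variance and the vertical axis 28.8%. The MM1 and KMS-12 libraries lie on opposite sides of the first component, and KMS-12-BM and KMS-12-PE on opposite sides of the second.

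The cyclin and MAF genes that mark the known translocations were among the most different genes of the whole comparison. MAF was at 357, 405 and 454 TPM (lowest, median and highest of 6 libraries) in MM1 and at 1.28, 2.698 and 4.605 TPM in KMS-12 (difference 6.83, SE 0.35, adjusted p = 0.0249). CCND2, the D-type cyclin that MAF activates, was at 167, 225 and 259 TPM in MM1 and 0.438, 1.05 and 1.83 TPM in KMS-12 (difference 6.77, SE 0.37, adjusted p = 0.0249). CCND1 showed the reverse, with 1.67, 7.09 and 9.59 TPM in MM1 and 477, 564 and 627 TPM in KMS-12 (difference -6.51, SE 0.54, adjusted p = 0.0259). For all 3 genes the families were separated by more than 5 log2 units from the nearest library to the nearest library. One MM1R library accounts for the upper end of CCND1 within that line, whose other 2 libraries lie lower, as the plot of single libraries shows. CCND3, the third D-type cyclin, overlapped between the families, with a mean of 43.8 TPM in MM1R, 43.5 TPM in MM1S, 24.1 TPM in KMS-12-BM and 48.3 TPM in KMS-12-PE.

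**Figure D2:**
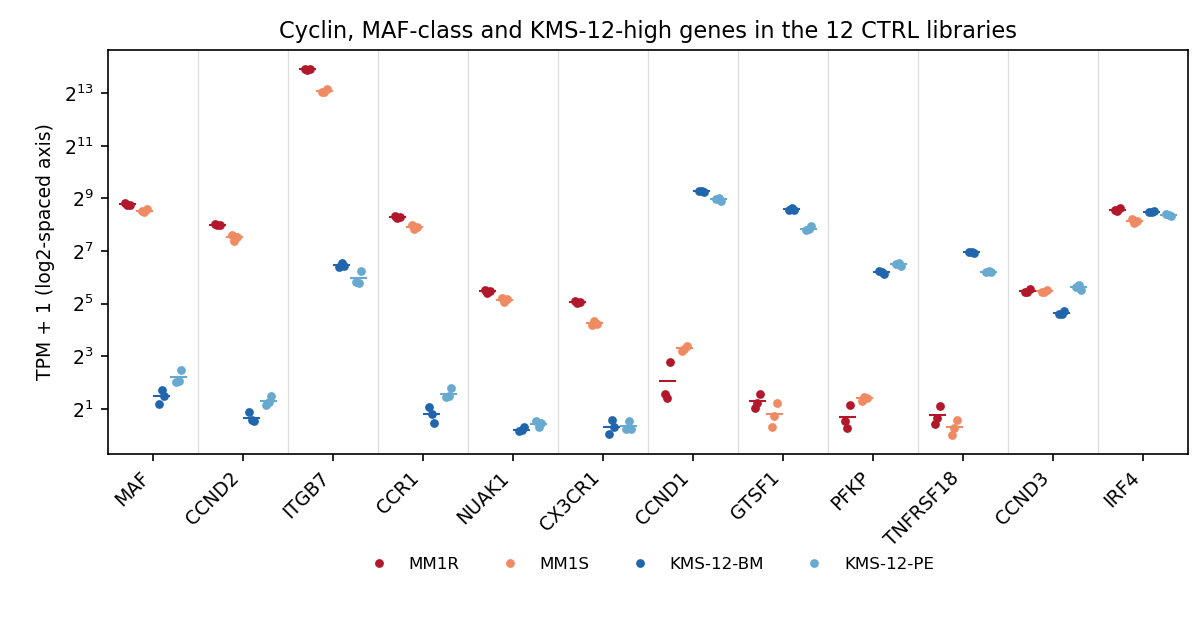
Levels of 12 genes in the 12 CTRL libraries, plotted as TPM + 1 on a log2-spaced axis; each point is 1 library and each short line the mean of the 3 libraries of a cell line. MAF, CCND2, ITGB7, CCR1, NUAK1 and CX3CR1 lie higher in all MM1 libraries, CCND1, GTSF1, PFKP and TNFRSF18 in all KMS-12 libraries, and CCND3 and IRF4 overlap.

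Single genes of the G1 control differed as well. CDK4, the kinase that D-type cyclins activate, had means of 195 and 208 TPM in MM1R and MM1S and of 409.9 and 413 TPM in their KMS-12 counterparts (difference -1.03, gap 0.94). The CDK inhibitor CDKN2A was lower in MM1 without overlap (difference -3.48, gap 0.59), and in this gene the MM1 lines themselves differed, with 115 TPM in MM1R and 2.73 TPM in MM1S. CDKN2C, another inhibitor of the same class, was at 109.5 TPM in KMS-12-BM and below 1 TPM on average in the other 3 lines, so that its family difference rests on 1 line. CDKN1A, the p21 inhibitor, overlapped: its mean was 175 TPM in MM1R, 30.2 TPM in MM1S, 27.1 TPM in KMS-12-PE and 1.71 TPM in KMS-12-BM. Of the 14 cyclin, CDK and inhibitor genes tested, 7 had no overlap, 4 higher in MM1 and 3 higher in KMS-12, close to the 46.0% of all genes. Only CCND2 and CCND1 had a gap, 1 in each direction, near the shares over all genes of 6.84% and 4.81%. RB1, the target of the cyclin D kinases, overlapped as well, at 6.84 TPM in KMS-12-BM and 31.98 TPM in KMS-12-PE around MM1R at 17.2 TPM.

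Known targets of MAF and genes of the MAF class of myeloma were higher in MM1. Of 12 listed genes 10 were tested, 8 had no overlap and 7 had a gap, all of them higher in MM1, against 6.84% of all genes with a gap in that direction. The median difference of the 10 was 3.95, beside -0.05 over all genes tested. The list was in part drawn up from what defines MAF-driven myeloma, which is also how the MM1 family is known. ITGB7, the integrin beta subunit through which MAF-high myeloma cells adhere to stroma, was at 8378, 12006 and 15571 TPM in MM1 and 53.7, 78.97 and 93.2 TPM in KMS-12 (difference 7.28, SE 0.39, adjusted p = 0.0249). CCR1, a chemokine receptor, was at 229.9, 279 and 324 TPM against 0.379, 1.41 and 2.45 TPM (difference 6.93, SE 0.38, adjusted p = 0.0249). In neither gene did the families come within 6 log2 units of each other.

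NUAK1, an AMPK-related kinase, had a difference of 4.99 and a gap of 4.56. CX3CR1, the fractalkine receptor, had a difference of 4.34 and a gap of 3.64. TLR4, the receptor for bacterial lipopolysaccharide, was at 18.1 and 7.37 TPM in the MM1 lines and at or below 0.0982 TPM on average in the KMS-12 lines (difference 3.56, gap 2.80). DEPTOR, an inhibitor of mTOR, was expressed in both families and higher in MM1 (difference 2.84, gap 1.73). CD9, a tetraspanin, departed from the rest of the list, since KMS-12-BM at 641 TPM was at the level of MM1R at 657 TPM and KMS-12-PE alone was low at 7.27 TPM. SPP1, the bone matrix protein osteopontin, was at 16.4 TPM in KMS-12-PE and under 1 TPM in the other 3 lines. Of the related factors, the small MAF proteins MAFG (difference 1.32, gap 0.52) and MAFF (difference 1.10, gap 0.31) were also higher in MM1 without overlap, with gaps below 1.

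Expression next to the 2 oncogenes was examined in the 10 tested genes on either side of each in RefSeq order. MYEOV, the nearest tested gene before CCND1, was higher in KMS-12 without overlap (difference -2.28, gap 0.19), at 390.4 TPM in KMS-12-PE and 44.6 TPM in KMS-12-BM. ORAOV1, FADD and PPFIA1, the next genes on the other side, were all higher in KMS-12, with differences of -0.79, -0.93 and -0.88. LRP5, a Wnt co-receptor further out on the side of MYEOV, had a difference of -1.49 and a gap of 1.20. Beside MAF, WWOX (difference 1.51, gap 0.35) and CDYL2 (difference 1.73, gap 1.34) were the nearest tested genes, and both were higher in MM1 without overlap. Of the 20 neighbours of CCND1, 10 were higher in KMS-12 and 1 higher in MM1 without overlap, and of the 20 neighbours of MAF, 5 were higher in KMS-12 and 4 higher in MM1 without overlap. Over all genes the shares were 23.4% higher in KMS-12 and 22.6% higher in MM1, so the counts around MAF were near those of all genes.

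Among the 15 highest in MM1 by the naming rule, UCHL1, a neuronal deubiquitinase, was at 1326, 1384 and 1543 TPM in MM1 and 2.88, 5.07 and 10.99 TPM in KMS-12 (difference 7.84, SE 0.47, adjusted p = 0.0249). SULF2, a heparan sulfate endosulfatase, was at 261, 270.2 and 279.9 TPM against 0.807, 1.84 and 2.68 TPM (difference 6.67, SE 0.34, adjusted p = 0.0249). PCP4 (difference 6.83, gap 4.83), a calmodulin-binding protein of neurons, BARX2 (difference 6.51, gap 5.82), a homeobox factor, CRYBB1 (difference 6.34, gap 5.72), a lens crystallin, and DUSP23 (difference 6.27, gap 6.03), a phosphatase, separated the families by nearly as much. The meiotic gene SYCP3, a component of the synaptonemal complex, was at 250.5 and 246 TPM in the MM1 lines and at 2.38 and 2.69 TPM in the KMS-12 lines. CCL3, a chemokine that myeloma cells release and that promotes osteoclast formation, had a mean of 1526 TPM in MM1R, 360.1 TPM in MM1S, 19.1 TPM in KMS-12-BM and 4.75 TPM in KMS-12-PE (difference 6.13, gap 3.89). IGLL5, which overlaps the immunoglobulin lambda constant region and may take up light chain reads, was at 31832 and 25412 TPM in the MM1 lines, 1497 TPM in KMS-12-PE and 75.7 TPM in KMS-12-BM.

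At the other end, GTSF1, a germline factor of the piRNA pathway, was at 0.237, 1.18 and 1.98 TPM in MM1 and 220.2, 311 and 393 TPM in KMS-12 (difference -7.20, SE 0.39, adjusted p = 0.0249). PFKP, the platelet-type phosphofructokinase of glycolysis, was at 0.201, 1.34 and 1.74 TPM against 68.2, 79.6 and 91.4 TPM (difference -5.31, SE 0.38, adjusted p = 0.0249). The lowest KMS-12 library was thus many times above the highest MM1 library in both genes. A pair of lymphocyte receptors followed this pattern, S1PR4 (difference -6.28, gap 4.88), which binds sphingosine 1-phosphate, and TNFRSF18 (difference -6.06, gap 5.10), the costimulatory receptor GITR. PRSS21, a serine protease of the testis, averaged 1.28 and 0.247 TPM in the MM1 lines, 74.2 TPM in KMS-12-PE and 399.5 TPM in KMS-12-BM. The nucleoside transporter SLC29A2, the nuclease ANKLE1, the axonemal protein SPAG6 and the ligand WNT10B had differences of -5.85, -5.78, -5.52 and -5.50. EPCAM, an epithelial adhesion molecule, was at 146 and 129 TPM in the KMS-12 lines and at 3.18 and 1.36 TPM in the MM1 lines. Its level in KMS-12-BM, where KRT5 and KRT14 had means of 0 and 0.0753 TPM, was as high as in KMS-12-PE. FADS2, a fatty acid desaturase (difference -5.46, gap 4.26), UNC13D, a factor of granule release (difference -5.36, gap 4.63), SLC9A3R2, a scaffold protein (difference -5.42, gap 4.51), ETFB, a mitochondrial flavoprotein (difference -5.35, gap 4.72), and LIMD2 (difference -5.32, gap 4.26) completed the 15 with CCND1; PFKP comes from the glycolysis list.

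A low level of these genes was present in the family that lacked them. For the 81 genes with a gap of at least 4 higher in MM1, the median level was 0.41% of the MM1 level for KMS-12-BM and 0.924% for KMS-12-PE. For the 30 such genes higher in KMS-12, the median was 0.67% in MM1R and 1.12% in MM1S. Whether this is expression in the cells or transfer of RNA or reads between libraries was not tested. The largest differences are measured against levels of this order. A gene near 0 in 1 family passes the filter on low values only where the other family is high, so counts over the tested members of a list describe them and are no test of it.

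Plasma cell genes were mostly higher in MM1. Of 20 plasma cell regulators and secretory cofactors, all tested, 13 had no overlap and 8 a gap, all higher in MM1, beside 22.6% and 6.84% of all genes, and the median difference was 1.65. XBP1, the factor of the secretory programme, was at 1312, 1362 and 1394 TPM in MM1 and 344, 369 and 404 TPM in KMS-12 (difference 1.86, SE 0.20, adjusted p = 0.0316). PRDM1, which encodes BLIMP1 and silences the B cell programme, was at 119.6, 129.6 and 142 TPM against 23.1, 33.04 and 48.5 TPM (difference 1.96, SE 0.40, adjusted p = 0.0767). Neither gene overlapped, and only XBP1 passed the test on line means. MZB1, an antibody assembly cofactor (difference 1.86, gap 1.26), ERN1, the IRE1 sensor that splices XBP1 mRNA (difference 2.36, gap 1.20), and SEC11C, a signal peptidase subunit (difference 2.52, gap 1.13), also had gaps.

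In SDC1, SLAMF7 and IGJ the families had a gap although the KMS-12 lines lay far apart. SDC1, the plasma cell marker CD138, had means of 738 and 557 TPM in the MM1 lines, 182 TPM in KMS-12-PE and 6.05 TPM in KMS-12-BM (difference 4.16, SE 1.67, adjusted p = 0.218). SLAMF7, the target of elotuzumab, had means of 597 and 547 TPM in MM1, 159 TPM in KMS-12-PE and 1.76 TPM in KMS-12-BM (difference 4.77, SE 2.07, adjusted p = 0.244). The joining chain gene IGJ had means of 11407, 6716, 36.2 and 2814 TPM in MM1R, MM1S, KMS-12-BM and KMS-12-PE. The adjusted p of limma on line means was 0.269 for IGJ, and none of the 3 genes passed that test. All 3 were lowest in KMS-12-BM. The coactivator POU2AF1 (difference 2.36, gap 0.67) and the kinase PIM2 (difference 1.45, gap 0.84) were higher in MM1 with gaps below 1. IRF4 itself did not separate the families, with 267, 332 and 399 TPM in MM1 and 318, 348 and 364 TPM in KMS-12 (difference -0.07).

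Of 28 tested genes of folding and stress in the endoplasmic reticulum, 11 had no overlap higher in MM1 and 3 higher in KMS-12, beside 22.6% and 23.4% of all genes, 4 had a gap, all higher in MM1, and the median difference was 0.47. Besides XBP1 and ERN1, the gap was found in HERPUD1, a factor of ER-associated degradation (difference 1.97, SE 0.24, adjusted p = 0.0395), and DNAJB9, a co-chaperone that is an XBP1 target (difference 2.06, gap 1.41). The chaperones HSPA5 and HSP90B1, which are among the most abundant of the list, differed little: HSPA5 by -0.40, while HSP90B1 had means of 2101 and 2336 TPM in the MM1 lines and 2204 and 2235 TPM in the KMS-12 lines.

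Surface antigens used as targets of antibodies or CAR T cells were mostly higher in MM1, with exceptions. Of 20 listed antigens 17 were tested, 8 had a gap higher in MM1 and 1 higher in KMS-12, beside 6.84% and 4.81% of all genes. The median difference was 1.68. Lists share members: SDC1 and SLAMF7 are also on the plasma cell list and ITGB7 on the MAF list. GPRC5D, an orphan receptor targeted by bispecific antibodies, was at 124, 244 and 338 TPM in MM1 and 1.96, 3.93 and 8.03 TPM in KMS-12 (difference 5.47, SE 0.69, adjusted p = 0.0404). TNFRSF17, the BAFF and APRIL receptor BCMA, was expressed in all lines, at 444, 674 and 903 TPM against 183, 251 and 323 TPM (difference 1.40, SE 0.41, adjusted p = 0.136). GPRC5D therefore separated the families by a gap of 3.79 and TNFRSF17 by 0.46. CD38, the target of daratumumab, overlapped, since its mean was 197 TPM in KMS-12-PE and 26.2 TPM in KMS-12-BM, with 19.3 and 27.8 TPM in MM1R and MM1S.

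LY9 (difference 4.38, gap 3.08), a receptor of the SLAM family, and LILRB4 (difference 4.10, gap 2.98), an inhibitory receptor, were low or near 0 in the KMS-12 lines. CD44, a hyaluronan receptor, had a difference of 2.93 and a gap of 2.26 (adjusted p = 0.0404), and CD46, a complement regulator, a difference of 1.68 and a gap of 1.44 (adjusted p = 0.0404). CD48, another SLAM family member, was at 2.14 TPM in KMS-12-BM and 175 TPM in KMS-12-PE, under the MM1 lines at 287 and 297 TPM. TNFRSF8, the CD30 antigen, was the antigen with a gap in the other direction (difference -3.40, gap 1.92), with 47.6 and 36.6 TPM in the KMS-12 lines, 7.66 TPM in MM1R and 0.896 TPM in MM1S. CD70, a ligand of the TNF family, was also higher in KMS-12 without overlap, by a gap of only 0.02.

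**Figure D3:**
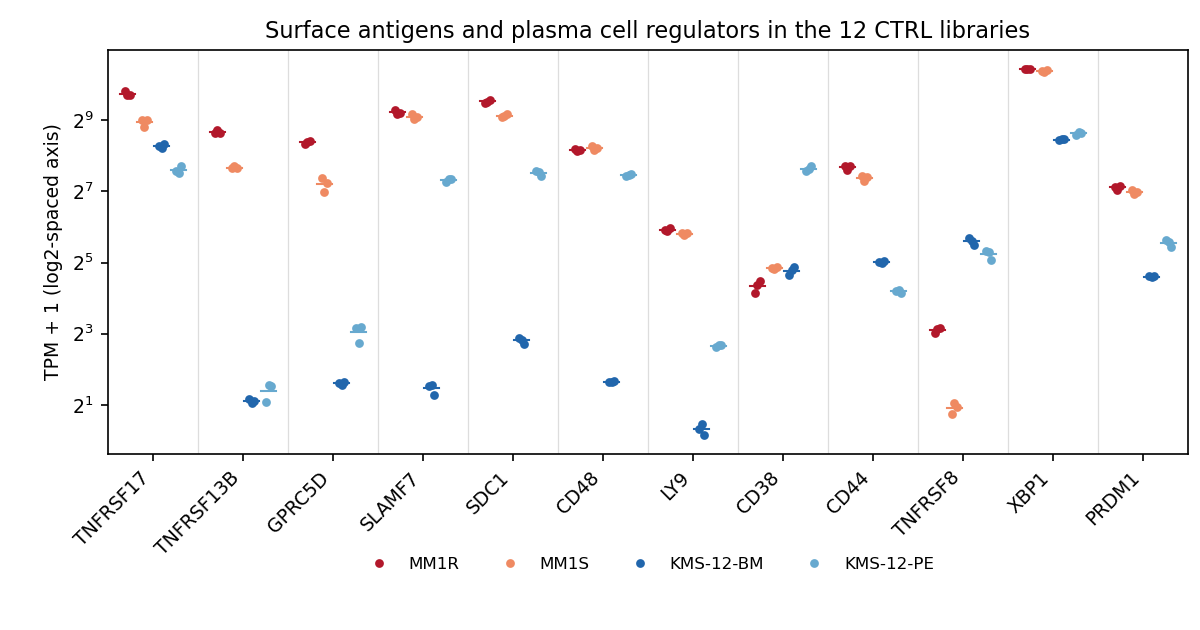
Levels of 10 surface antigens and 2 plasma cell regulators in the 12 CTRL libraries, plotted as TPM + 1 on a log2-spaced axis; each point is 1 library and each short line the mean of the 3 libraries of a cell line. SDC1, SLAMF7, CD48 and LY9 are lowest in KMS-12-BM, CD38 is highest in KMS-12-PE, and TNFRSF8 lies higher in the KMS-12 libraries.

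Receptors of the BAFF and APRIL system differed in opposite directions. TNFRSF13B, which encodes TACI, was at 199, 302 and 420.1 TPM in MM1 and 1.09, 1.199 and 1.94 TPM in KMS-12 (difference 6.92, SE 0.43, adjusted p = 0.0249). TNFRSF13C, the BAFF receptor of mature B cells, was at 0.103, 0.547 and 1.597 TPM against 1.695, 8.14 and 16.8 TPM (difference -2.24, SE 0.81, adjusted p = 0.189). TACI thus had a wide gap, while the BAFF receptor was higher in KMS-12 by a gap of 0.05, with most of it in KMS-12-BM. TNFSF13, which encodes the ligand APRIL, was low in all lines and higher in MM1 (difference 1.63, gap 0.84).

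No gap was found among 16 tested transcription factors of earlier B cell stages, of 17 listed, and 3 were without overlap in each direction, near the shares over all genes of 22.6% higher in MM1 and 23.4% higher in KMS-12. MEF2C, a MADS-box factor, was higher in MM1 without overlap, at 206 and 178 TPM in the MM1 lines, 94.4 TPM in KMS-12-PE and 0.6498 TPM in KMS-12-BM. TCF3 (E2A) (difference 1.23, gap 0.70) and IRF8 (difference 2.19, gap 0.95) were also higher in MM1. FOXO1 was higher in KMS-12 (difference -1.61, gap 0.90). PAX5, the B cell identity factor that plasma cells switch off, was at 11.3 TPM in KMS-12-BM and below 0.1 TPM on average in the other 3 lines. SPI1, which encodes PU.1, was low in KMS-12-PE alone, at 0.305 TPM against 31.5 TPM in KMS-12-BM. Of 15 tested genes of the B cell receptor and B cell surface, 11 overlapped, 3 had no overlap higher in MM1 and 1 higher in KMS-12. The only one with a gap was CR2, the complement receptor CD21, near the share over all genes of 6.84% higher in MM1. CR2 was at 21.9 and 26.9 TPM in the MM1 lines against 0.0749 and 0.283 TPM in the KMS-12 lines (difference 4.43, SE 0.34, adjusted p = 0.0249).

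Adhesion and chemokine genes with a gap were all higher in MM1. Of 20 integrins and adhesion molecules tested, 11 had no overlap higher in MM1 and 2 higher in KMS-12, beside 22.6% and 23.4% of all genes. A gap was found in 7, beside 6.84% of all genes higher in MM1, and the median difference was 0.97. ITGA8, an integrin alpha subunit, was at 47.9, 80.8 and 115 TPM in MM1 and 0.146, 0.314 and 0.819 TPM in KMS-12 (difference 5.80, SE 0.50, adjusted p = 0.0277). ITGA6, the laminin receptor subunit, had a difference of 3.56 and a gap of 2.73. ITGB1, the beta subunit that most integrin pairs share, was instead higher in KMS-12 without overlap (difference -1.16, gap 0.45). Of 16 chemokines and receptors tested 8 overlapped, 6 had no overlap higher in MM1 and 2 higher in KMS-12, beside the same shares of all genes. A gap was found in 5, among them CCR1, CCL3 and CX3CR1, beside 6.84% of all genes.

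Genes of cytokine signalling were divided between the families. For IL-6, the main growth factor of myeloma, the receptor IL6R was at 242, 280.2 and 292 TPM in MM1 and 57.8, 62.2 and 68.2 TPM in KMS-12 (difference 2.11, SE 0.22, adjusted p = 0.0316). Its signalling subunit IL6ST had a difference of 2.94 and a gap of 1.63, and IL10RA, the IL-10 receptor, a difference of 3.15 and a gap of 1.87. STAT5A, a signal transducer of other cytokines, was at 0.708, 0.979 and 1.71 TPM in MM1 and 29.5, 51.4 and 77.8 TPM in KMS-12 (difference -4.58, SE 0.53, adjusted p = 0.0363). STAT5B was higher in KMS-12 as well (difference -1.72, gap 1.22), and STAT3, which IL-6 activates, differed by -0.54 without overlap. The 3 receptor genes named here were thus higher in MM1 and the STAT genes higher in KMS-12. Of 17 genes tested 3 had a gap higher in MM1 and 2 higher in KMS-12, beside 6.84% and 4.81% of all genes.

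Among 22 NF-kB genes, all tested, 8 were higher in KMS-12 without overlap and 3 higher in MM1, beside 23.4% and 22.6% of all genes. REL, the lymphoid NF-kB subunit, was at 0.353, 0.607 and 0.863 TPM in MM1 and 15.5, 17.3 and 21.96 TPM in KMS-12 (difference -3.57, SE 0.35, adjusted p = 0.0299). RELA, the ubiquitous subunit, was higher in KMS-12 with a gap below 1 (difference -1.07, gap 0.80). The deubiquitinases CYLD (difference 1.87, gap 1.13) and TNFAIP3 (difference 1.84, gap 0.32), both inhibitors of NF-kB, were higher in MM1 without overlap. NFKBIA and TRAF3, inhibitors as well, were higher in KMS-12 without overlap, by gaps of 0.33 and 0.35, so the inhibitors lay in both directions. REL and CYLD were the only genes of the list with a gap, and 1 of 22 in each direction is close to the share over all genes, 4.81% and 6.84%.

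Receptors and ligands of T cell costimulation, studied in myeloma as immune checkpoints, were higher in MM1. Of 20 listed genes 15 were tested, 12 had no overlap and 7 a gap, all higher in MM1, beside 22.6% and 6.84% of all genes. The median difference was 1.52. CD28, which myeloma cells use for survival signals from dendritic cells, was at 179, 194 and 219 TPM in MM1 and 0.584, 2.66 and 5.08 TPM in KMS-12 (difference 5.96, SE 0.65, adjusted p = 0.0338). TIGIT, an inhibitory receptor of T and NK cells, was at 20.7, 23.6 and 27.2 TPM against 0.0356, 0.134 and 0.391 TPM (difference 4.40, SE 0.33, adjusted p = 0.0249). CD276 (B7-H3) had a difference of 4.40 and a gap of 3.75. TRAT1, an adaptor of the T cell receptor, was at 60.8 and 74.03 TPM in the MM1 lines and at 0.171 and 0.3801 TPM in the KMS-12 lines. Of 14 listed T and NK cell markers, TRAT1 included, 10 were tested. Of these, 2 had no overlap higher in MM1 and 5 higher in KMS-12, beside 22.6% and 23.4% of all genes. CD7 had a gap higher in KMS-12 (difference -1.98, gap 1.26). The summed level of the 14 was 73.86 to 79.13 TPM in MM1R and 80.8 to 87.86 TPM in MM1S, most of it TRAT1, and 31.59 to 38.17 TPM in the KMS-12 lines. In bulk RNA, more cells with a gene and more RNA of it per cell cannot be told apart.

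Interferon-stimulated genes were higher in MM1 in most cases, with a few strong exceptions. Of 46 listed genes 41 were tested. Higher in MM1, 24 had no overlap and 15 a gap, beside 22.6% and 6.84% of all genes. Higher in KMS-12, 3 had no overlap and 2 a gap, beside 23.4% and 4.81% of all genes. The median difference was 1.54, at 1.82 in MM1R against KMS-12-BM and 1.21 in MM1S against KMS-12-PE. The promoters of the 3 genes with the widest gap in MM1 and of the 2 with a gap in KMS-12 are shown because genes of opposite direction carry the same core of the interferon-stimulated response element, the site bound by the interferon factor complex and by IRF proteins. Each sequence is the 250 bases before the transcription start from RefSeq (GRCh38.p14), 5′ to 3′ on the strand of the gene, with the core (GAAA, any 2 bases, GAAA) or its reverse complement in capitals.
HERC5 (chr4:88456869-88457118, plus strand): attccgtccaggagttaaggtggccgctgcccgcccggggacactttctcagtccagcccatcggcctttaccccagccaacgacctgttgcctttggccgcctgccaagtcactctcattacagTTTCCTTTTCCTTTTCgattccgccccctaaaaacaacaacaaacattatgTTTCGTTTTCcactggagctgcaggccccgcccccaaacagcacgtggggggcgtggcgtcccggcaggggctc
ISG20 (chr15:88638766-88639015, plus strand): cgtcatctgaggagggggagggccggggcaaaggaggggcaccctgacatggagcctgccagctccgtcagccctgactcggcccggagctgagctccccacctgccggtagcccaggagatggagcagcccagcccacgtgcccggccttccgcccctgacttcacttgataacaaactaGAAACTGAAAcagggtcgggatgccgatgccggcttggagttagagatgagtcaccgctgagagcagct
EPSTI1 (chr13:42992242-42992491, minus strand): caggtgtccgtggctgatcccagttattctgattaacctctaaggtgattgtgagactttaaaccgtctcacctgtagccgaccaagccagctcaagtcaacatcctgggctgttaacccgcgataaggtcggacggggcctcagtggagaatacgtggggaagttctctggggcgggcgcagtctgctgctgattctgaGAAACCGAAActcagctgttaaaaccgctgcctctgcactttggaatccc
ISG15 (chr1:1013247-1013496, plus strand): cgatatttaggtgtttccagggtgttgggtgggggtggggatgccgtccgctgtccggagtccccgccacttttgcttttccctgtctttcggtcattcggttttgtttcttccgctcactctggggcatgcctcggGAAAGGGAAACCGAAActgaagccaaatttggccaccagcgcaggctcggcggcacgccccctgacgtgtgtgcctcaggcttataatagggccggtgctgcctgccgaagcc
IFITM1 (chr11:313790-314039, plus strand): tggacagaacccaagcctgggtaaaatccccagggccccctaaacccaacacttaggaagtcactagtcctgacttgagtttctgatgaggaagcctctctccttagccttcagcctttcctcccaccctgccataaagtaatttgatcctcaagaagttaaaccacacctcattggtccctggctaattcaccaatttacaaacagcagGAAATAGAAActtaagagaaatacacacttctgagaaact

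HERC5, whose promoter holds 3 matches, is the ligase that attaches ISG15 to proteins, and it was at 30.4, 39.4 and 47.1 TPM in MM1 and 0.0524, 0.0909 and 0.4801 TPM in KMS-12 (difference 5.10, SE 0.35, adjusted p = 0.0249). ISG20, an exonuclease that degrades viral RNA, was at 145, 162 and 197 TPM against 4.53, 9.14 and 12.7 TPM (difference 4.21, SE 0.43, adjusted p = 0.0316). EPSTI1, also induced by interferon, was at 12.3, 15.7 and 17.4 TPM against 0, 0.173 and 0.378 TPM (difference 3.80, SE 0.35, adjusted p = 0.0277). All 3 were separated by gaps of more than 3 log2 units. ISG15, the ubiquitin-like protein that HERC5 attaches, went the other way, at 11.1, 12.1 and 18.4 TPM in MM1 and 56.5, 68.5 and 86.9 TPM in KMS-12 (difference -2.35, SE 0.29, adjusted p = 0.0403). IFITM1, a membrane protein that blocks viral entry, was at 2.22, 4.19 and 5.16 TPM in MM1 and 16.8, 85.04 and 161 TPM in KMS-12 (difference -3.52, SE 1.05, adjusted p = 0.139). The ligase and the modifier that it attaches therefore lay on opposite sides of the comparison. IFITM2 was higher in KMS-12 as well (difference -3.40, gap 0.70), and the IFITM genes are close copies of each other whose reads may be divided uncertainly. MX2 was at 138 TPM in KMS-12-PE and 0.0519 TPM in KMS-12-BM, so the MM1 lines at 2.08 and 3.68 TPM lay between them.

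The motif was present in genes of both directions. It was found on either strand in 1014 of 27305 genes of the promoter table (3.71%) and in 22 of the 34 interferon genes that could be matched to the table (64.7%). It was present in 8 of 15 genes with a gap higher in MM1 (53.3%), in both genes with a gap higher in KMS-12 and in 12 of 17 without a gap (70.6%). A match says only that these letters stand in the window.

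Antigen presentation by MHC class I was modestly higher in MM1. Of 16 genes tested 11 had no overlap and 3 a gap, all higher in MM1, beside 22.6% and 6.84% of all genes. The median difference was 0.65. HLA-F (difference 2.48, gap 2.17) and HLA-E (difference 1.47, gap 1.26), non-classical class I genes, and PSMB10, an immunoproteasome subunit (difference 1.80, gap 1.29), were those with a gap. HLA genes are polymorphic and close copies of each other, so that reads may be lost or divided between them. In MHC class II none of 13 genes had a gap. Without overlap, 4 were higher in KMS-12 and 1 higher in MM1, beside 23.4% and 22.6% of all genes, HLA-DQA1 by 0.40 among the former. The median difference was -1.06, at 0.54 in MM1R against KMS-12-BM and -2.27 in MM1S against KMS-12-PE. HLA-DRA had means of 30.2, 38.6, 0.701 and 135 TPM in MM1R, MM1S, KMS-12-BM and KMS-12-PE. CIITA, the class II transactivator, was highest in KMS-12-PE at 41.4 TPM.

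RNA levels of apoptosis genes of the BCL2 family differed in both directions. BCL2L1, which encodes BCL-XL, was at 409.5, 423 and 429.5 TPM in MM1 and 22.7, 25.98 and 29.9 TPM in KMS-12 (difference 3.97, SE 0.23, adjusted p = 0.0249). BCL2, the target of venetoclax, was at 32.5, 34.6 and 36.2 TPM in MM1 and 64.7, 125 and 197 TPM in KMS-12 (difference -1.68, SE 0.57, adjusted p = 0.171). MCL1, on which myeloma cells commonly depend, was at 248, 281 and 298 TPM against 170.4, 203 and 232 TPM (difference 0.46, SE 0.24, adjusted p = 0.304). None of the 3 overlapped, but the gap was 3.73 for BCL2L1, 0.82 for BCL2 and 0.10 for MCL1. BCL2L2, which encodes BCL-W, was higher in KMS-12 (difference -2.42, gap 1.79). Of 10 tested genes that promote apoptosis, BIK had a gap higher in KMS-12 (difference -1.91, gap 1.25), HRK was higher in KMS-12 (difference -2.30, gap 0.46) and BMF higher in MM1 (difference 2.40, gap 0.97) without overlap. BCL2L11, which encodes BIM, overlapped, at 22.98 TPM in KMS-12-BM and 100.5 TPM in KMS-12-PE.

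Growth and oncogene pathways held a few wide differences. MYC was at 309, 383 and 475 TPM in MM1 and 1074, 1155 and 1226 TPM in KMS-12 (difference -1.60, SE 0.27, adjusted p = 0.0581). It was expressed in all lines, and its families were separated by a gap of 1.18. MXD3 (difference 2.82), a partner of MAX that opposes MYC, and MYCN, at 2.24 and 1.702 TPM in the MM1 lines and under 0.1 TPM in the KMS-12 lines, were higher in MM1. Of 14 tested feedback genes of MAPK signalling 5 had a gap higher in MM1, beside 6.84% of all genes. CCND1 was the only one with a gap higher in KMS-12, beside 4.81% of all genes. Without overlap, 5 of the 14 were higher in MM1 and 4 higher in KMS-12, beside 22.6% and 23.4% of all genes. The median difference of the 14 was 0.33, at 1.49 in MM1R against KMS-12-BM and -0.47 in MM1S against KMS-12-PE. The ERK phosphatase DUSP4 was at 55.4, 103 and 149.6 TPM in MM1 and 0.314, 0.428 and 0.676 TPM in KMS-12 (difference 5.99, SE 0.54, adjusted p = 0.0277). DUSP6 (difference 4.30, gap 3.38), a second ERK phosphatase, and SPRED1 (difference 3.50, gap 2.97), an inhibitor of RAS signalling, were also near 0 in KMS-12, whereas ETV4, an ETS factor, was higher in KMS-12 without overlap (difference -2.17, gap 0.71).

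Wnt and Notch genes gave single cases. AXIN2, a feedback gene of Wnt signalling, was at 12.8 and 7.83 TPM in the MM1 lines and at 0.0436 and 0.118 TPM in the KMS-12 lines (difference 3.35, gap 2.78), and the ligand WNT10A was higher in MM1 (difference 2.42, gap 1.31), opposite to WNT10B. In the Notch list HEYL, a transcriptional repressor, had a gap higher in MM1 (difference 2.43, gap 1.98) and the ligand DLL3 a gap higher in KMS-12 (difference -3.27, gap 1.69). Among 20 genes recurrently altered in myeloma, all 5 with a gap were higher in MM1, beside 6.84% of all genes in that direction. They were XBP1, PRDM1 and CYLD, named above from other lists, the nucleotidyltransferase FAM46C (TENT5C, 2.64) and the chromatin reader SP140 (2.83). The list as a whole did not lie toward MM1. Without overlap, 6 of its genes were higher in MM1 and 8 higher in KMS-12, beside 22.6% and 23.4% of all genes. Its median difference was -0.24.

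Cancer-testis antigens, germline genes that tumours reactivate, differed in which members were on. Of 29 listed genes 19 were tested, 2 had a gap higher in MM1 and 5 higher in KMS-12, beside 6.84% and 4.81% of all genes. The median difference was -2.58, at -0.14 in MM1R against KMS-12-BM and -4.34 in MM1S against KMS-12-PE. MAGEA1 was at 146, 149.6 and 153 TPM in MM1 and 0.431, 0.638 and 1.297 TPM in KMS-12 (difference 6.46, SE 0.25, adjusted p = 0.0249). PRAME, a repressor of retinoic acid signalling, had a difference of 3.22 and a gap of 2.67. BAGE (difference -3.57, gap 3.01), MAGEC1 (difference -2.98, gap 1.78) and MAGEA10 (difference -3.64, gap 1.63) were instead higher in KMS-12. The list thus had single members that were near 0 in either family. MAGE genes include near-identical copies, and the sources used here do not say how reads were divided between them.

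Of the Polycomb and DNA methylation genes, those with a gap were higher in KMS-12. CBX2, a chromobox subunit of Polycomb complex PRC1, was at 0.251, 0.486 and 0.812 TPM in MM1 and 17.7, 19.97 and 23.4 TPM in KMS-12 (difference -3.85, SE 0.33, adjusted p = 0.0268). BMI1, its RING finger subunit, was at 5.16, 5.703 and 7.58 TPM against 37.9, 45.01 and 48.8 TPM (difference -2.71, SE 0.26, adjusted p = 0.0299). DNMT3B, a DNA methyltransferase, had a difference of -2.01 and a gap of 1.47. These were 3 of 24 genes tested, beside 4.81% of all genes with a gap higher in KMS-12. Of the 24, 7 had no overlap higher in KMS-12 and 6 higher in MM1, close to the shares over all genes of 23.4% and 22.6%. EZH2, the methyltransferase of PRC2, differed by 0.29. Of 22 acetyltransferases, BET readers and deacetylases tested, KAT2B alone had a gap, higher in MM1 (difference 1.99, gap 1.35), beside 6.84% of all genes. Without overlap, 3 of the 22 were higher in MM1 and 7 higher in KMS-12, beside 22.6% and 23.4% of all genes.

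Metabolic genes with a gap were found in both directions. In glycolysis and the hypoxia response, 29 genes were tested, 4 had a gap higher in MM1 and 2 higher in KMS-12, beside 6.84% and 4.81% of all genes. Besides PFKP, the aldolase ALDOC was higher in KMS-12 (difference -2.63, gap 1.51), whereas the enolase ENO2 (difference 3.27, gap 1.92), the glucose transporter SLC2A3 (difference 3.35, gap 2.69) and the hypoxia gene NDRG1 (difference 4.47, gap 3.07) were higher in MM1. Of 26 genes of sterol and fatty acid synthesis FADS2 and SQLE, the squalene epoxidase (difference -2.74, gap 1.78), had a gap, both higher in KMS-12. The purine enzyme ADA (difference 2.31, gap 1.73) and the retinoid receptor RXRA (difference 2.44, gap 1.93) were higher in MM1. TSC22D3, a glucocorticoid-induced gene also called GILZ, was higher in MM1 (difference 2.72, gap 1.49), with 60.2 TPM in MM1R and 21.6 TPM in MM1S. The efflux pump ABCC1 (difference -1.49, gap 1.01) and CUL4A (difference -1.58, gap 1.16), the scaffold of the cereblon ligase, were higher in KMS-12.

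Replication, mitosis and proteasome genes had few gaps, beside 6.84% of all genes higher in MM1 and 4.81% higher in KMS-12. Ribosomal protein genes lay toward KMS-12. Of 40 DNA replication genes 2 had a gap, with a median difference of -0.03, and RRM2, a ribonucleotide reductase subunit, was the one higher in MM1, at 713, 778 and 824 TPM against 135, 153 and 166 TPM (difference 2.34, SE 0.21, adjusted p = 0.0277). None of 42 mitosis genes and none of 27 proteasome genes had a gap. Without overlap, 15 mitosis genes were higher in MM1 and 5 higher in KMS-12, with a median difference of 0.29 over the list. For the proteasome genes these counts were 7 and 10, beside 22.6% and 23.4% of all genes. Among 37 cytosolic ribosomal protein genes 17 had no overlap, all higher in KMS-12, beside 23.4% of all genes in that direction. The median difference was -0.46. RPS2 (difference -2.11, gap 1.23), RPL30 (difference -1.95, gap 1.29) and RPL6 (difference -1.46, gap 1.09) were the 3 with a gap, beside 4.81% of all genes. Levels in TPM are shares of a library, and total RNA per cell was not analysed here.

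**Figure D4:**
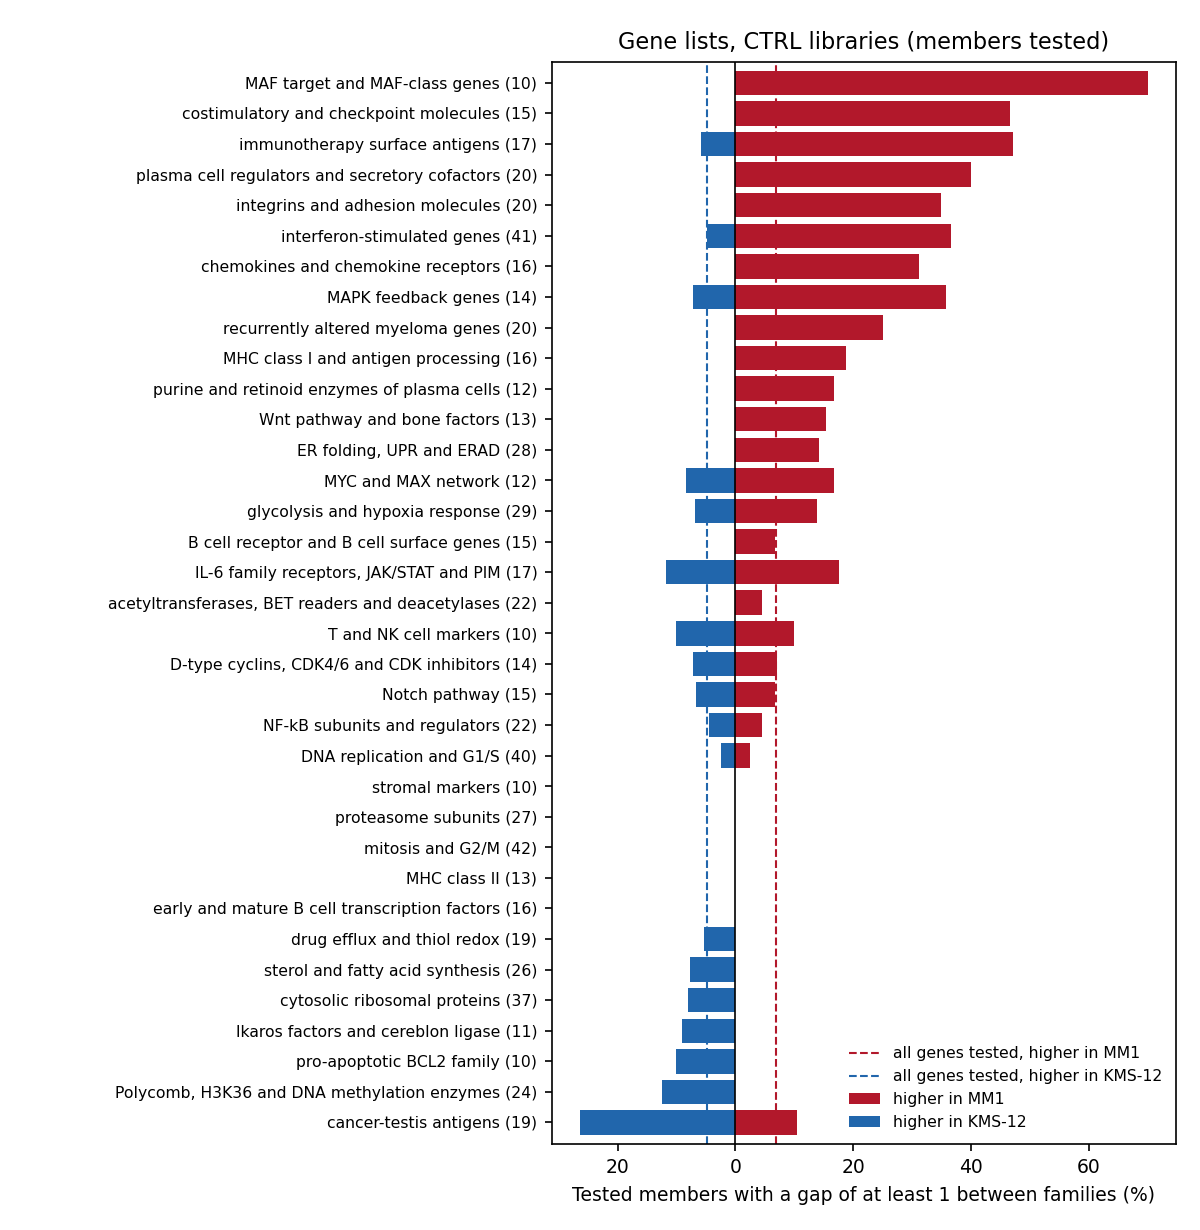
Share of the tested members of each gene list (percent; number tested in brackets) whose families were separated by a gap of at least 1 on log2(TPM + 1) in the CTRL libraries, to the right for genes higher in MM1 and to the left for genes higher in KMS-12. Dashed lines mark all genes tested, 6.84% and 4.81%; 7 of the 10 genes of the MAF list lie to the right, and the mitosis and proteasome lists hold no gene with a gap.

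The same comparison was made in the 12 siIRF4 libraries, which come from the same 4 lines, entered the filter on low values and are no independent repeat of the families. IRF4, the siRNA target, averaged 291 TPM in MM1R, 141 TPM in MM1S, 222 TPM in KMS-12-BM and 155 TPM in KMS-12-PE in these libraries, beside CTRL means of 380.3, 283, 361 and 327 TPM. A gap was found in siIRF4 for 1170 genes (7.74%) higher in MM1 and 839 (5.55%) higher in KMS-12. Of the CTRL genes with a gap, 917 of 1034 (88.7%) higher in MM1 and 618 of 727 (85.0%) higher in KMS-12 had a gap in the same direction in siIRF4, which is 78.4% and 73.7% of the siIRF4 genes. No gene had a gap in opposite directions. MAF had a difference of 8.44 in siIRF4 and CCND2 of 6.31. CCND1 had a difference of -6.64, UCHL1 of 8.53 and GTSF1 of -6.92. The median difference of the MAF list was 4.98 in siIRF4 and 3.95 in CTRL.

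Some differences were not of the same size in the CTRL and siIRF4 libraries, by limma's test of the interaction over libraries. Its p-values measure only the spread between libraries. By the labels the conditions also differ in time, DMSO and electroporation, which cannot be told apart from an effect of the siRNAs. A change of at least 1 with an adjusted p under 0.05 was found for 227 genes (1.50%) and for 23 of the 391 named genes. The difference of GPRC5D was 5.47 in CTRL and 4.30 in siIRF4 (adjusted p = 0.00012). TNFRSF17 went from 1.40 to 3.08 (adjusted p = 1.1e-13). CX3CR1 went from 4.34 to 6.50 (adjusted p = 1.2e-09). The antigens GPRC5D and TNFRSF17 thus shifted in opposite directions, the first toward a smaller family difference and the second toward a larger one. The median difference of the replication genes was -0.03 in CTRL and -0.74 in siIRF4, and that of the mitosis genes 0.29 and -0.38.

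**Figure D5:**
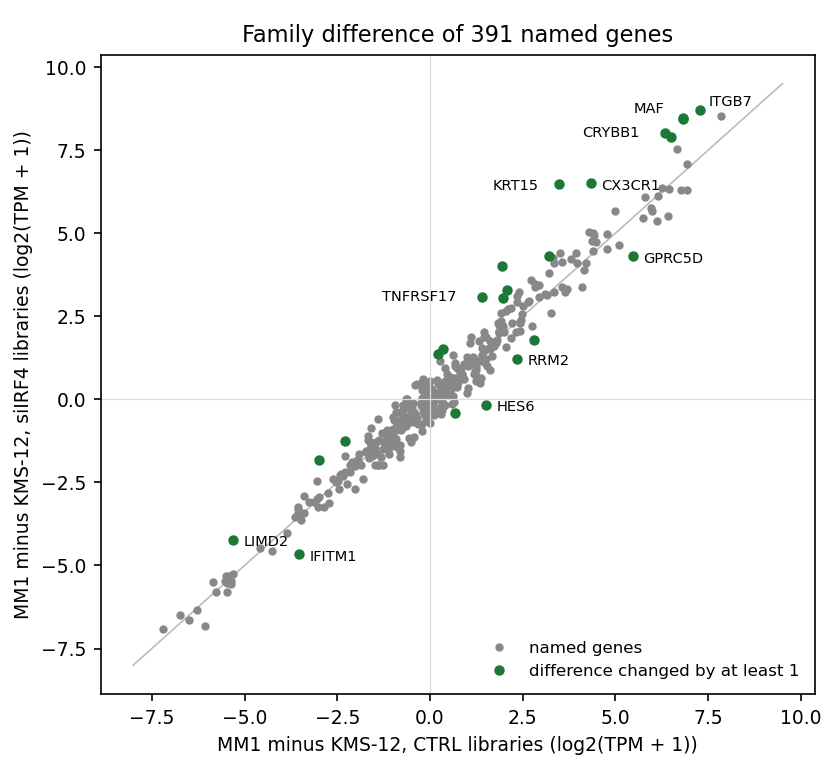
Family difference (MM1 minus KMS-12, log2(TPM + 1)) of 391 named genes in the CTRL libraries (horizontal) and the siIRF4 libraries (vertical), with the line of equal difference; green points changed by at least 1 with an adjusted interaction p under 0.05. Most genes lie along the line, and 23 are green, KRT15, CX3CR1 and MAF above it and HES6, RRM2 and GPRC5D below it.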

How the data were processed

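RNA of 4 myeloma lines was sequenced, 3 CTRL and 3 siIRF4 libraries per line. The submitters' processing notes name STAR, featureCounts, FastQC, MultiQC and hg19, with no versions. The authors deposited TPM values per gene and library; the sources used here state no annotation, strandedness or lengths. Of 25370 rows, 28 whose symbols had become dates and 1 with a blank symbol were not used. Reads in whole numbers could be recovered for 20484 genes (tolerance 0.02 reads), and 17299851 to 24018950 reads per CTRL library set the precision of low values. No replicates were copies of each other (lowest chi-square per degree of freedom 2.05).

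Log2(TPM + 1) of genes with at least 1 TPM in at least 3 libraries was fitted with limma 3.58.1 (R 4.3.3; trended, robust prior, 24 libraries, 8 group means), two-sided, with Benjamini-Hochberg adjustment over 15113 genes and a threshold of 0.05. Limma was also run on the 4 line means, 2 against 2; an exact permutation of 2 lines against 2 cannot go below 0.333. The fit was tested on simulated data. Scripts ran in Python 3.11.15. The annotation of promoters is that of RefSeq (GRCh38.p14), matched by symbol, and a RefSeq gene table gave names and neighbour order only.

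Named genes were MAF, IRF4 and the D-type cyclins, the 15 highest in each family by difference (no overlap, at least 5 TPM in each line of the higher family), up to 3 members of each list by gap in each direction and 2 with overlap, all members of the MAF, cyclin, BCL2, BAFF, antigen, translocation, B cell factor and plasma cell lists, and window and neighbour genes. Members and lists were chosen with earlier results of these data known, and 391 genes were named, not all of which are printed. Alternatives comprised pseudocount, filter, scaling, prior, voom, replicate block, gap size, and leaving out libraries or lines. The 2 comparisons of 1 line with 1 line were chosen after seeing the data.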

Additional observations from a re-analysis of the deposited data

Results flagged for a closer look

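For 23 of the 391 named genes the family difference in the siIRF4 libraries departed from that in the CTRL libraries by at least 1 log2 unit, with an adjusted p under 0.05 for limma's interaction term over libraries. The change (siIRF4 difference minus CTRL difference) was above 0 for 17 genes and below 0 for 6.

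Among these 23, those of the MAF class and of the highest genes in MM1 had a larger difference in siIRF4, while that of CCND2, which is not among the 23, went from 6.77 to 6.31. The change was 1.62 for MAF, 1.42 for ITGB7 and 2.16 for CX3CR1, and 1.10 for CD9, 1.63 for PCP4, 1.38 for BARX2 and 1.67 for CRYBB1. MAF averaged 438 TPM in MM1R, 368 TPM in MM1S and 3.61 TPM in KMS-12-PE in CTRL, and 723, 696 and 0.201 TPM in siIRF4. Over the 81 genes with a gap of at least 4 higher in MM1, the median level in KMS-12-PE was 0.924% of the MM1 level in CTRL and 0.182% in siIRF4, while in KMS-12-BM it was 0.41% and 0.82%. The part of this low level in the changes was not tested.

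Among antigens and plasma cell genes, TNFRSF17 had a change of 1.68, HERPUD1 of 1.07, TXNDC5, a disulfide isomerase, of 1.17 and GPRC5D of -1.16. Of B cell and chromatin-bound factors, BCL6 changed by 1.17, SPI1 by 1.21, the Notch-linked repressor HES6 by -1.69 and MXD3 by -1.04. RRM2 changed by -1.12, the cytidine deaminase APOBEC3B by -1.09 and IFITM1 by -1.14. The sign of the difference changed in HES6, from 1.52 in CTRL to -0.17 in siIRF4, and in APOBEC3B, from 0.66 to -0.43.

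Of genes higher in KMS-12, MYEOV changed by 1.03 and LIMD2 by 1.09. Markers of other cell types were also among the 23: KRT15 with 3.02, S100A9 with 2.09 and COL6A3 with 1.17. KRT15, a keratin, averaged 19.6 and 10.02 TPM in MM1R and MM1S in CTRL and 165 and 82.3 TPM in siIRF4.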

How the results depend on the processing

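The number of calls over libraries stayed within 1.5 times under the settings of this paragraph, but the larger side did not. Leaving out each library in turn gave 12737 to 12792 called genes, 7026 to 7186 without overlap, 1783 to 1833 with a gap and 6107 to 6204 larger than within families. In siIRF4 it gave 13023 to 13083 called and 2025 to 2064 with a gap, and 22 to 24 interaction genes. A replicate block called 6114 genes higher in MM1 and 6791 higher in KMS-12. Replicate numbers do not pair the samples (same-number correlations -0.117 to 0.039 in CTRL and -0.072 to 0.069 in siIRF4), and the block moved the number of calls from 12882 to 12905. KMS-12 had more calls than MM1 (6773 against 6109), whereas median-of-ratios scaling called 6572 higher in MM1 and 6391 higher in KMS-12, and voom on recovered reads 6651 and 6178. Genes without overlap went from 3421 in MM1 and 3536 in KMS-12 to 3708 and 3247 with that scaling.

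Some counts moved by more than 1.5 times. Lines as replicates gave 692 and, in siIRF4, 1293 calls. A gap of at least 2 left 660 and 777 genes. Fewer lines make non-overlap easier: without KMS-12-BM, 10536 genes had no overlap and 3174 a gap (siIRF4 3486); without KMS-12-PE, 10902 and 3607 (3698). MM1R against KMS-12-BM gave 12527 and 4313 (4512), and MM1S against KMS-12-PE 12050 and 3713 (4171). The 23 interaction genes became 36 with a pseudocount of 0.1, 44 with voom, and 40 both without KMS-12-BM and in MM1S against KMS-12-PE.

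Of 173 genes followed, those that reversed overlapped between families. Without KMS-12-BM the difference was -0.14 for CCND3, 0.14 for CDKN2C, -0.76 for RB1, 0.071 for PAX5, -0.72 for BCL2L11, -1.96 for HLA-DRA and -1.19 for S100A9. In MM1S against KMS-12-PE it was -0.15 for CCND3, -0.67 for RB1, 0.042 for PAX5, -0.64 for BCL2L11, -1.79 for HLA-DRA and -0.42 for S100A9. Without KMS-12-PE it was 0.41 for SPP1, -0.25 for SPI1 and 1.85 for MX2, and in MM1R against KMS-12-BM 0.46 for SPP1 and 1.54 for MX2. MX2 was 0.072 with voom.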

Other observations

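Some family differences lay side by side in the genome. Of all windows of 21 neighbouring tested genes, ordered by RefSeq, the 5 with the lowest and the 5 with the highest median difference are described. Windows were picked by this median, so their counts of genes in 1 direction follow in part from the choice and are no test. Over all genes, 23.4% were higher in KMS-12 and 22.6% higher in MM1 without overlap. The lowest median difference was -2.05, from ZNF93 to ZNF676, a cluster of zinc finger genes. There all 21 genes were higher in KMS-12 and 19 had no overlap. The siIRF4 libraries, with the same lines, gave a median of -2.20 there. A further zinc finger window, LINC00665 to ZNF570, had a median of -1.56 with 18 genes without overlap, and EP400 to ZNF268 had -1.60 with 20. The window C14orf2 to CRIP1 had -1.73 with 17, and AZIN1 to MED30 had -1.42. Zinc finger genes of such clusters are close copies of each other, and the sources used here do not say how their shared reads were divided.

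Windows higher in MM1 had smaller medians. The widest was ARMCX2 to TMSB15B at 1.45, which holds the BEX and TCEAL genes, with all 21 genes higher in MM1 and 11 without overlap. LARGE to CSF2RB, with the APOL genes, had a median of 1.34, SELT to CCNL1 of 1.21, CD55 to INTS7 of 1.20 with CR2 and CD46 among its genes, and EAF2 to CCDC14 of 1.18 with PARP9, DTX3L and PARP14. Copy number was not analysed here.

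HBB, the beta chain of haemoglobin, averaged 25.9 TPM in MM1R and 10.7 TPM in MM1S against 0.203 and 0.635 TPM in the KMS-12 lines (difference 3.69, gap 2.08). Of 8 erythroid and megakaryocyte markers, 5 were under 1 TPM in all CTRL libraries. The alpha globin genes HBA1 (difference -2.15) and HBA2 (difference -1.06) went the other way and overlapped between the families. The median difference of the 3 markers tested was -1.06.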
